A study of Mus musculus with 7 samples.

Results

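TREM2 is a surface receptor of microglia, the resident macrophages of the brain. The Trem2 pathway genes described here are 10 genes chosen by symbol: Trem2, its adaptor Tyrobp, and 8 genes that microglia induce in disease states (Apoe, Clec7a, Cst7, Lpl, Itgax, Spp1, Cd68 and Axl). All 10 were among the 48526 Ensembl genes of the deposited table and among the 17896 genes tested. The brain RNA came from mice of 24 months in 7 libraries, 4 labelled on and 3 labelled off. All carry the V1S and SV2 constructs and the label DT Venus, Venus being a fluorescent protein. Per the study title, these constructs serve protein complementation of α-synuclein. The on animals have the label Glucose and the off animals the label Dox, so doxycycline and the state of the constructs cannot be told apart. The sources used here do not give the driver of the constructs, the brain region, the strain, or whether each library is 1 animal. The p-values therefore cover the spread among these libraries, which may be technical.

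TREM2 recognises lipids, lipoproteins and cell debris, and it signals through TYROBP, whose tyrosine motif recruits the kinase SYK. In disease models microglia around plaques or dying cells lower their homeostatic genes and raise lipid-handling, lysosomal and adhesion genes. An early step of that change includes Tyrobp and Apoe and does not need TREM2, and a later step with Cst7, Lpl, Itgax, Clec7a and Axl does. Several of the genes are not restricted to microglia in brain: astrocytes are a main source of Apoe, and neurons or other glia express Lpl, Spp1 and Axl. In bulk brain RNA, fewer microglia and less RNA per microglial cell cannot be told apart.

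The measured quantity is the regularized logarithm (rlog, log2 units) of a gene's read count, a transform that shrinks deviations most at low counts. Differences are therefore compressed for low genes such as Cst7 and Itgax. On replicate 1 stood apart from its group. Its score on principal component 1, which held 47.7% of the variance, was -4.1, within the off range of -8.64 to -3.56, where the other on libraries scored 7.19 to 9.15. A gene's deviation correlated with its transcript length in opposite directions in the groups. Spearman's rho, taken over genes and so not over independent replicates, ranged from -0.322 to -0.236 for off. It was 0.272 to 0.29 for on replicates 2 to 4, and -0.047 for on replicate 1. Differences and list counts are therefore also given without on replicate 1, and for some genes and lists with the GC and length trend removed. On replicate 1 was singled out from these same values, and leaving out an on library that lies near the off group can enlarge differences. Genes passing rose from 466 to 2917 without it, so passing in that fit is a description and no independent test. None of the 12 cell type lists had a gene listed at 0 in every library, which is too low a mark to show that a cell type was present. Some leukocyte markers were too low to test. The summed level of 6 neuronal markers was 17.52 to 17.6 in on and 17.53 to 17.66 in off.

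The promoters of 8 of the 10 genes, all but Tyrobp and Lpl, were read from RefSeq (GRCm38.p6), as windows of 250 bases before and 50 bases from the start site. Those of the receptor, of a lysosomal gene and of 3 late genes are shown, because these genes did not all vary alike across the libraries. Capitals mark GAGGAA, the core of the site bound by the myeloid factor PU.1, and TGANTCA, the AP-1 site, on either strand. Lines run 5′ to 3′ along the gene.

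Trem2, chr17:48346151-48346450, plus strand: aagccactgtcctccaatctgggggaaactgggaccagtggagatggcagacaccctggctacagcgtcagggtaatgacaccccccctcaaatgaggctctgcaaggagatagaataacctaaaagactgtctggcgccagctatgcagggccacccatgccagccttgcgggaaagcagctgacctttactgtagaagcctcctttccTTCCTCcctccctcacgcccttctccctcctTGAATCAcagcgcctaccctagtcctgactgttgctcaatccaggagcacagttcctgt
Cd68, chr11:69666121-69666420, minus strand: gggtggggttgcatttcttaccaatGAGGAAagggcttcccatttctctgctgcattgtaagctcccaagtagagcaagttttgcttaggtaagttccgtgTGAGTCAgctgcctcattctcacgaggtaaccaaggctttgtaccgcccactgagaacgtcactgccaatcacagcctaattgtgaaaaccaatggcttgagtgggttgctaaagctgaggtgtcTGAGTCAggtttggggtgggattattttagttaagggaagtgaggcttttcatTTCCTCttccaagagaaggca
Clec7a, chr6:129472730-129473029, minus strand: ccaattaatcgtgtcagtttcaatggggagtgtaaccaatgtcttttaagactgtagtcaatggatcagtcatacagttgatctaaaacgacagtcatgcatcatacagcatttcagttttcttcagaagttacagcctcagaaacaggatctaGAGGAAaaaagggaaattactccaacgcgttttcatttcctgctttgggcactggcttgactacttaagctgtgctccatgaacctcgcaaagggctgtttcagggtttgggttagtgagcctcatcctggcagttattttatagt
Cst7, chr2:150570165-150570464, plus strand: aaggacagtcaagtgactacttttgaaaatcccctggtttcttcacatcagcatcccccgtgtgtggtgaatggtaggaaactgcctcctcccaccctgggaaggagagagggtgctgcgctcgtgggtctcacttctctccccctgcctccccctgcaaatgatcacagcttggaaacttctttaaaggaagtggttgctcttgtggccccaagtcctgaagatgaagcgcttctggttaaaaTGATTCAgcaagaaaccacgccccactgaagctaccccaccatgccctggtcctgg
Itgax, chr7:128129300-128129599, plus strand: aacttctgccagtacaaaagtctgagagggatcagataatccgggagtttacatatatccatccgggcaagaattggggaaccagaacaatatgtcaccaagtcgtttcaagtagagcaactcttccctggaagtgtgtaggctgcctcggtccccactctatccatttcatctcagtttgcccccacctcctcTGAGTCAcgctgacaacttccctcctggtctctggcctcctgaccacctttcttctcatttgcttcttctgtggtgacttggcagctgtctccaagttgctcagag

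GAGGAA was present in 6 of the 8 promoters, against 28.3% of 27025 promoters of the same length. TGANTCA was present in 4 (Trem2, Cst7, Itgax and Cd68), against 7.93%. CACGTG, the E-box bound by MITF and TFE factors, was in none of the 8, against 7.24%. The 2 AP-1 matches of Cd68 began 149 and 24 bases upstream of the start, and that of Trem2 began 9 bases upstream. These are letter matches in short windows, and binding was not measured.

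The 10 genes lie on 7 chromosomes. Tyrobp, Apoe, Itgax and Axl are all on chromosome 7, which held 8.03% of the tested genes. Trem2 spans 48346401 to 48354147 on the plus strand of chromosome 17, and Tyrobp spans 30413760 to 30417585 on the plus strand of chromosome 7 (GENCODE M21, GRCm38). Spp1 shares 309 of its 1648 exon bases with Gm42793 on the same strand, so its value is uncertain. Per transcript length, as the rlog value minus the log2 of the transcript length in kilobases, Apoe had the highest level at 14.79 ± 0.11 (SD, n = 7). It was followed by Spp1 (10.43 ± 0.06), Tyrobp (9.83 ± 0.15), Axl (8.85 ± 0.07), Trem2 (8.67 ± 0.16), Cd68 (7.98 ± 0.09), Lpl (7.44 ± 0.10), Clec7a (5.44 ± 0.17), Cst7 (4.64 ± 0.12) and Itgax (3.34 ± 0.19). Axl (8.75 to 8.92) and Trem2 (8.50 to 8.86) overlapped on this scale, and no other neighbours in the order did. The adaptor was thus more abundant per length than the receptor in all libraries, while the late genes Clec7a, Cst7 and Itgax were the lowest.

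The comparison asks whether the constructs' state went with other levels of these microglial genes. In limma's fit over all tested genes, 0 of the 10 genes passed an adjusted p of 0.05, where 2.6% of all tested genes did (1.79% lower in on). Trem2 came closest, at a difference of -0.23 ± 0.07 (SE, limma adjusted p = 0.0914). The differences were negative in 9 of the 10, against 48.4% of all tested genes, with a median of -0.07 against 0.0029 over all tested genes. Of these, Clec7a and Axl (each -0.02), Cst7 (-0.01) and Itgax (-0.0011) were close to 0. With the GC and length trend removed, 8 of the 10 were negative, with a median of -0.03 against -0.0027 over all genes of that fit. Trem2 and Apoe had an unadjusted p under 0.05, both lower in on, where 10.6% of tested genes did in that direction. Cd68 was the 1 gene of the 10 whose groups did not overlap, against 15.2% of tested genes.

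**Figure D1:**
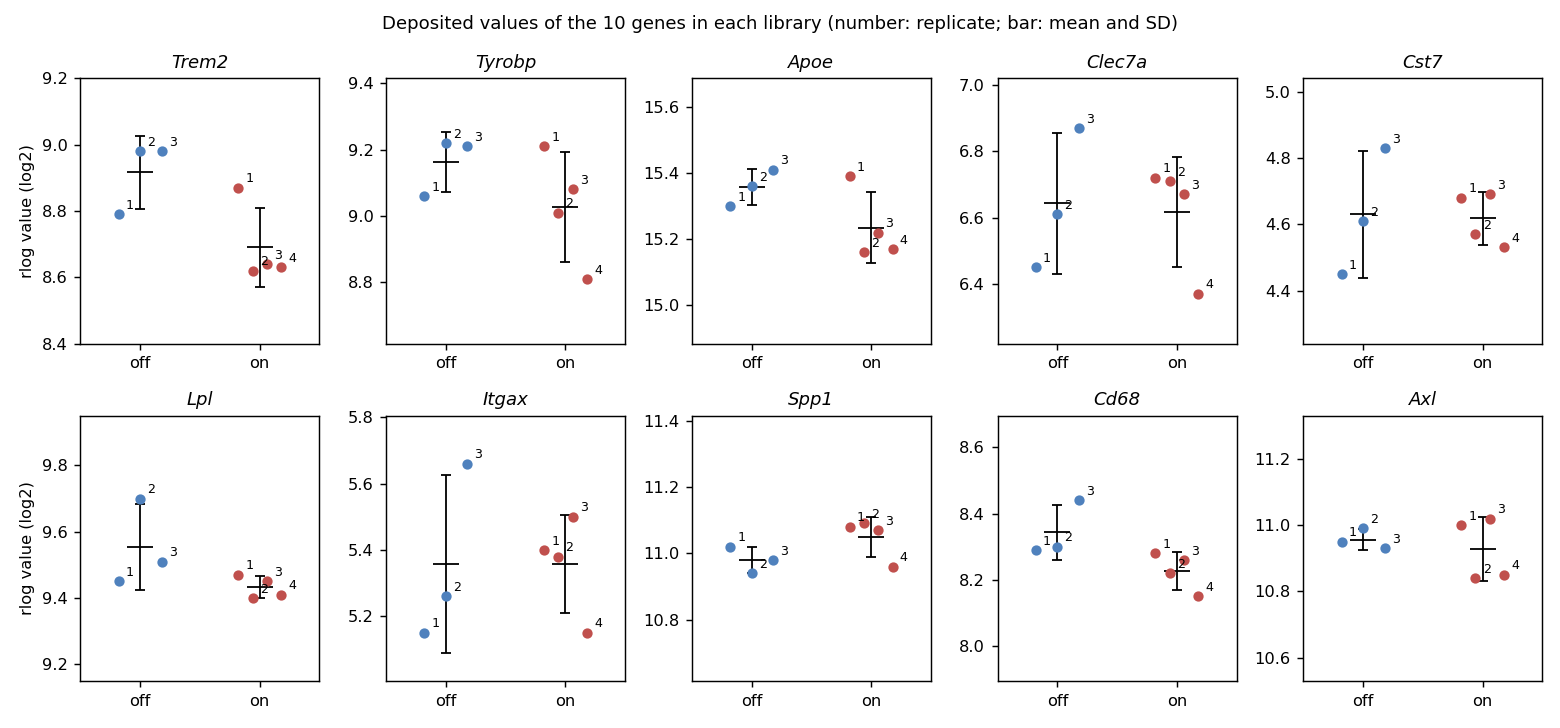
Deposited rlog value (log2, vertical axis) of each of the 10 genes in the 3 off (blue) and 4 on (red) libraries, with replicate numbers, and the mean and SD of each group in black; every panel spans the same height. On replicates 2 to 4 of Trem2 lie at 8.62 to 8.64, below all off libraries, and on replicate 1 lies at 8.87 among them.

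Trem2 had rlog values of 8.87, 8.62, 8.64 and 8.63 in on replicates 1 to 4 and 8.79, 8.98 and 8.98 in off replicates 1 to 3. On replicates 2 to 4 were below every off library and nearly equal, and the groups overlapped only because on replicate 1 lay above off replicate 1. The means were 8.69 ± 0.12 (SD, n = 4) in on and 8.92 ± 0.11 (SD, n = 3) in off, a change of -14.6% on the linear scale with a 95% interval of -22.9% to -5.4%, not adjusted for the number of genes. Without on replicate 1 the difference was -0.29 ± 0.06 (SE, limma adjusted p = 0.0039), in a fit where 2 of the 10 genes, Trem2 and Apoe, and 8.02% of tested genes passed lower. With array weights, which let limma weigh each library by its scatter, it was -0.26 ± 0.06 (SE, limma adjusted p = 0.0138), the 1 call among the 10 genes in a fit where 6.34% of tested genes passed lower. When each library was corrected for its dependence on GC content and transcript length, the difference was -0.12 ± 0.05 (SE, limma adjusted p = 0.27). In that fit 0 of the 10 genes passed, and 0.359% of tested genes passed lower. With that correction and without on replicate 1, the difference of Trem2 was -0.16 ± 0.05 (SE, limma adjusted p = 0.055), and again 0 of the 10 genes passed. Over all genes of that fit, 784 of 17831 passed lower and 979 passed higher.

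Tyrobp, the adaptor through which TREM2 signals, had rlog values of 9.21, 9.01, 9.08 and 8.81 in on replicates 1 to 4 and 9.06, 9.22 and 9.21 in the off replicates. On replicate 4 was the lowest library and on replicate 1 was level with the highest off libraries, so the groups overlapped. The difference was -0.14 ± 0.08 (SE, limma adjusted p = 0.337), with a 95% interval of -0.31 to 0.03. Without on replicate 1 it was -0.20 ± 0.07 (SE, limma adjusted p = 0.0517). It was -0.06 ± 0.07 (SE, limma adjusted p = 0.685) without on replicate 4, and -0.04 ± 0.07 (SE, limma adjusted p = 0.789) with the GC and length trend removed. The difference between the rlog values of Trem2 and Tyrobp within a library was -0.44 to -0.17 in on and -0.27 to -0.23 in off, so the on libraries spread on both sides of the off libraries.

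Apoe encodes the lipoprotein of brain lipid transport and a ligand of TREM2. Its rlog values were 15.39, 15.16, 15.22 and 15.17 in on and 15.30, 15.36 and 15.41 in off. As for Trem2, on replicates 2 to 4 lay below every off library and on replicate 1 lay among the off libraries. The difference was -0.12 ± 0.06 (SE, limma adjusted p = 0.222), and without on replicate 1 it was -0.18 ± 0.04 (SE, limma adjusted p = 0.0129). It had the opposite sign, 0.01 ± 0.03 (SE), after removal of the GC and length trend.

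Lpl encodes lipoprotein lipase, which releases fatty acids from lipoproteins. Its rlog values were 9.47, 9.40, 9.45 and 9.41 in on and 9.45, 9.70 and 9.51 in off. The on libraries stayed within a narrow band, off replicate 1 lay level with on replicate 3 and below on replicate 1, and off replicate 2 stood above all others. The difference was -0.12 ± 0.06 (SE, limma adjusted p = 0.247). It was -0.05 without off replicate 2, and -0.17 ± 0.06 (SE, limma adjusted p = 0.192) after removal of the GC and length trend. With that removal and without on replicate 1, it was -0.20 ± 0.06 (SE, limma adjusted p = 0.0573).

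Cd68, a heavily glycosylated membrane protein of macrophage lysosomes, had rlog values of 8.28, 8.22, 8.26 and 8.15 in on and 8.29, 8.30 and 8.44 in off. All on libraries were below all off libraries, by 0.01 between on replicate 1 and off replicate 1. The difference was -0.11 ± 0.06 (SE, limma adjusted p = 0.281). After removal of the GC and length trend it was -0.05 ± 0.05 (SE). Trem2, Apoe, Lpl and Cd68 were the 4 of the 10 genes whose on replicates 2 to 4 all lay below the off libraries, a pattern found in 16.7% of tested genes.

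Clec7a encodes dectin-1, a receptor for β-glucans that, like TYROBP, signals through SYK. Its rlog values were 6.72, 6.71, 6.67 and 6.37 in on and 6.45, 6.61 and 6.87 in off. Both extremes of the gene, on replicate 4 at the bottom and off replicate 3 at the top, lay outside the range of the other group. The difference was -0.02 ± 0.10 (SE, limma adjusted p = 0.915), with a 95% interval of -0.23 to 0.18. The annotation lists the gene as a polymorphic pseudogene with protein-coding transcripts.

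Itgax encodes CD11c, an integrin α chain that pairs with the β2 integrin ITGB2. It had rlog values of 5.40, 5.38, 5.50 and 5.15 in on and 5.15, 5.26 and 5.66 in off. The off libraries covered a wider range than the on libraries. The difference was 0.00 ± 0.10 (SE, limma adjusted p = 0.997), with a 95% interval of -0.22 to 0.21. Without off replicate 3, the highest library, it was 0.15 ± 0.08 (SE, limma adjusted p = 0.377).

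Cst7 encodes cystatin F, an inhibitor of lysosomal cysteine proteases. Its rlog values were 4.68, 4.57, 4.69 and 4.53 in on and 4.45, 4.61 and 4.83 in off, with the lowest and the highest value both in off. The difference was -0.01 ± 0.07 (SE, limma adjusted p = 0.933), with a 95% interval of -0.16 to 0.14. Clec7a, Itgax and Cst7 all had their highest value in off replicate 3, and on replicate 4 and off replicate 1 were the lowest pair of libraries for each. Trem2, Apoe and Cd68 were also highest in off replicate 3, and Tyrobp and Cd68 were also lowest in on replicate 4.

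Axl encodes a receptor tyrosine kinase of the TAM group that binds GAS6 on dying cells. Its rlog values were 11.00, 10.84, 11.02 and 10.85 in on and 10.95, 10.99 and 10.93 in off, so the off libraries lay inside the range of the on libraries. The difference was -0.02 ± 0.05 (SE, limma adjusted p = 0.814), with a 95% interval of -0.13 to 0.08. Spp1 encodes osteopontin, a secreted ligand of integrins and CD44. It was the only one of the 10 genes with a positive difference, 0.07 ± 0.04 (SE, limma adjusted p = 0.352). Its rlog values were 11.08, 11.09, 11.07 and 10.96 in on and 11.02, 10.94 and 10.98 in off, where on replicate 4 lay among the off libraries. After removal of the GC and length trend the difference of Spp1 was 0.12 ± 0.04 (SE, limma adjusted p = 0.174). With that removal and without on replicate 1 it was 0.12 ± 0.04 (SE, limma adjusted p = 0.0924). Without on replicate 1 none of the other 7 genes passed: the differences were -0.13 for Lpl and Cd68, -0.06 for Clec7a, -0.05 for Axl, -0.03 for Cst7, -0.02 for Itgax and 0.06 for Spp1.

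**Figure D2:**
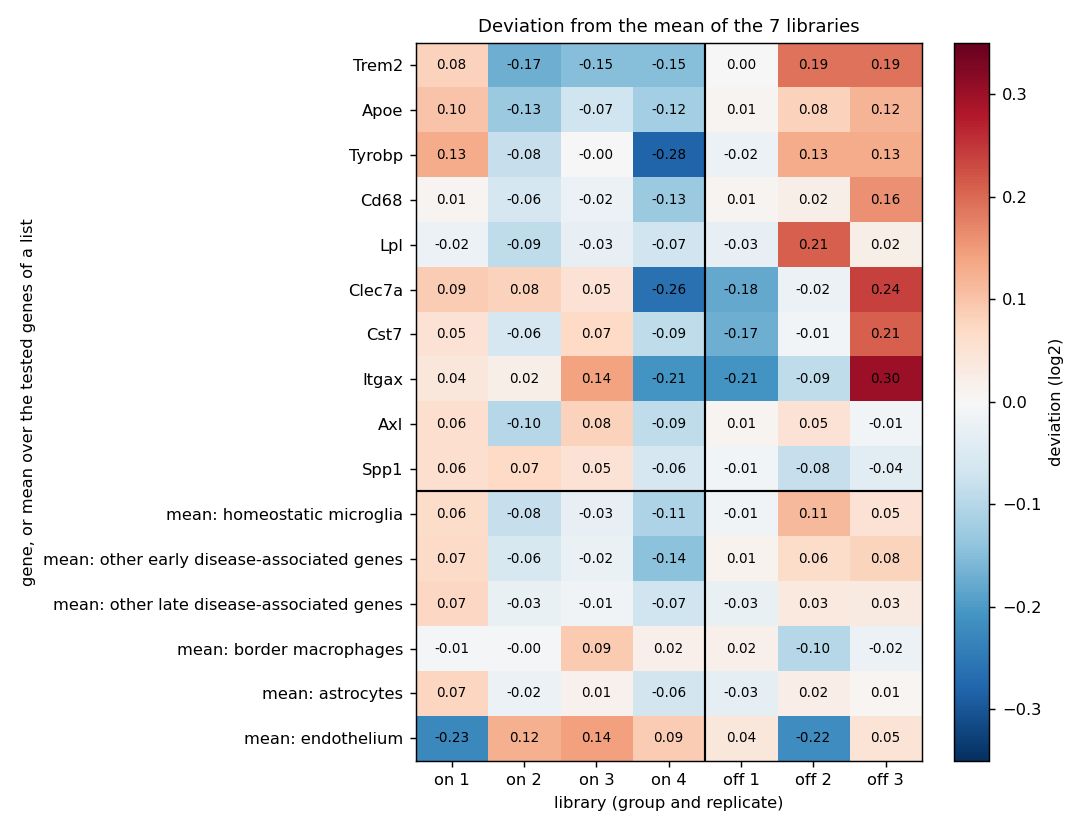
Deviation (log2, colour and printed number) of each gene, and of the mean over the tested genes of 6 lists, from its mean over the 7 libraries, shown by column. The rows of Clec7a, Cst7 and Itgax are lowest in on replicate 4 and off replicate 1, while the row of Trem2 is lowest in on replicates 2 to 4.

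The genes thus did not all vary alike across libraries, as the map of deviations shows side by side. Likeness of a pair of genes was measured as the root-mean-square difference of their deviations from their own means over the 7 libraries, as a description. Among pairs of the 10 genes it was smallest for Apoe with Cd68 (0.0557), Clec7a with Itgax (0.062) and Trem2 with Apoe (0.0625). It was smaller for Cst7 with Cd68 (0.0819) than for Cst7 with Clec7a (0.0854), so this measure did not split the 10 genes into clear groups. Among 15195 other genes with a mean of 5 or more, which leaves out Cst7, the genes most like Trem2 included Cst3, which encodes cystatin C (0.0266), the creatine kinase gene Ckb (0.0283), Fxyd7 (0.0293) and Chac1 (0.0295). Apoe was the most like Trem2 of the 10 genes, at place 265, and Tyrobp was at place 1087. Tyrobp was most like Qdpr (0.0407), the myeloid transcription factor gene Irf8 (0.0418), Unc93b1 (0.0421), a chaperone of nucleic acid-sensing Toll-like receptors, Oaf (0.0457) and the microglial gene Tmem119 (0.0466). Cd68 was most like the tetraspanin gene Cd151 (0.0178), 2810410L24Rik (0.0217), Eef2kmt (0.0238), Gm15853 (0.0242) and P2ry6 (0.0246), a microglial nucleotide receptor gene.

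Other genes of the receptor's signalling route gave few differences. In the fit without on replicate 1, 8.02% of all tested genes passed lower and 8.28% higher. Of the 6 genes of the TREM family and its second adaptor, Treml2 alone was abundant enough to test, at 0.01 ± 0.04 (SE, limma adjusted p = 0.887). Of 17 genes from SYK to the PI3 kinase and CARD9 branches, 1 passed higher in on (0.816% of tested genes did), 0 passed lower and 16 did not pass, with a median of 0.01. The gene that passed was Pik3r1, the regulatory p85 subunit of PI3 kinase, at 12.58, 12.59, 12.57 and 12.59 in on and 12.45, 12.47 and 12.38 in off. Its on libraries were nearly equal and all above the off libraries, with a difference of 0.15 ± 0.04 (SE, limma adjusted p = 0.0435). It kept the call in 1 of the 7 fits without a library, that without on replicate 1, and had an adjusted p of 0.069 to 0.139 in the other 6. After removal of the GC and length trend it was 0.08 ± 0.03 (SE, limma adjusted p = 0.193). Malt1 also passed higher without on replicate 1.

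Genes that restrain or shed the receptor were 7 in number, of which 0 passed, with a median of 0.01. The largest differences were those of Adam17 (0.12 ± 0.05, SE, limma adjusted p = 0.227), a protease that sheds TREM2 from the surface, the ubiquitin ligase gene Cblb (0.07 ± 0.05) and Dok3 (-0.07 ± 0.06). Adam17 passed higher without on replicate 1, at 0.16 ± 0.05 (SE, limma adjusted p = 0.0296), and with the GC and length trend removed it was 0.07 ± 0.05. Of 16 tested genes of lipoprotein and lipid handling, 0 passed, with a median of 0.01. Abca1, which loads lipid onto APOE, was at 11.43 to 11.47 in on and 11.30 to 11.34 in off, without overlap, and differed by 0.13 ± 0.04 (SE, limma adjusted p = 0.0621). Nr1h2, the liver X receptor β that regulates Abca1 and Apoe, differed by -0.13 ± 0.04 and the APOE receptor gene Lrp1 by 0.13 ± 0.05. Abca1 passed higher without on replicate 1 (0.14 ± 0.04, SE, limma adjusted p = 0.0163), and Nr1h2 (limma adjusted p = 0.0437) and Npc2 passed lower. With the GC and length trend removed, the differences shrank to 0.03 ± 0.03 for Abca1, -0.01 ± 0.03 for Nr1h2 and 0.05 ± 0.03 for Lrp1. The 9 integrin and osteopontin receptor genes had 0 calls and a median of 0.06, with Cd44 at 0.10 ± 0.06, Itgal at 0.09 ± 0.04 and Itgb5 at -0.07 ± 0.05. Of the TAM receptors and ligands beside Axl, 0 of 4 passed. Mertk differed by 0.14 ± 0.04 (SE, limma adjusted p = 0.101), Gas6 by -0.08 ± 0.04 and Tyro3 by -0.05 ± 0.04. With the GC and length trend removed, Mertk was at 0.12 ± 0.04, Gas6 at -0.01 ± 0.03 and Tyro3 at -0.03 ± 0.03. The integrin and TAM lists had 0 calls without on replicate 1 too.

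For the lists that follow, the cells that gave the transcripts were not resolved in bulk brain RNA. The remaining early genes of the disease-associated state had differences below 0 in 8 of 8, with a median of -0.08 and 0 calls. They included the lysosomal protease gene Ctsd (-0.15 ± 0.07, SE, limma adjusted p = 0.21), the ferritin gene Fth1 (-0.12 ± 0.05) and Timp2 (-0.12 ± 0.05). These 3 of the 8 passed lower without on replicate 1: Ctsd at -0.21 (limma adjusted p = 0.0148), Fth1 at -0.17 (0.0169) and Timp2 at -0.16 (0.0106). With the GC and length trend removed, 0 passed, 6 of 8 were below 0, and the same genes were at -0.07, -0.04 and -0.10. Of 16 tested late genes 0 passed, 12 were below 0 and the median was -0.02. Cd63, a tetraspanin of late endosomes, differed by -0.16 ± 0.05 (SE, limma adjusted p = 0.0936), Serpine2 by -0.11 ± 0.04 and the growth factor gene Igf1 by 0.11 ± 0.06. Cd63 (-0.21, limma adjusted p = 0.00233) and Serpine2 (-0.14, limma adjusted p = 0.0122) passed lower without on replicate 1. With the GC and length trend removed, Cd63 and Serpine2 were each at -0.08 and Igf1 at 0.00. The list of lysosomal membrane genes, cathepsins regulated by cystatins and the cystatin C gene Cst3 had 0 calls among 7 genes and a median of -0.03. Cst3 differed by -0.22 ± 0.07 (SE, limma adjusted p = 0.0956), while Ctsf and Ctsh differed by -0.06 ± 0.04 and -0.05 ± 0.05. Cst3 was the 1 gene of this list to pass without on replicate 1, at -0.30 ± 0.05 (SE, limma adjusted p = 0.000771), and was at -0.08 ± 0.04 (SE, limma adjusted p = 0.363) with the GC and length trend removed.

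**Figure D3:**
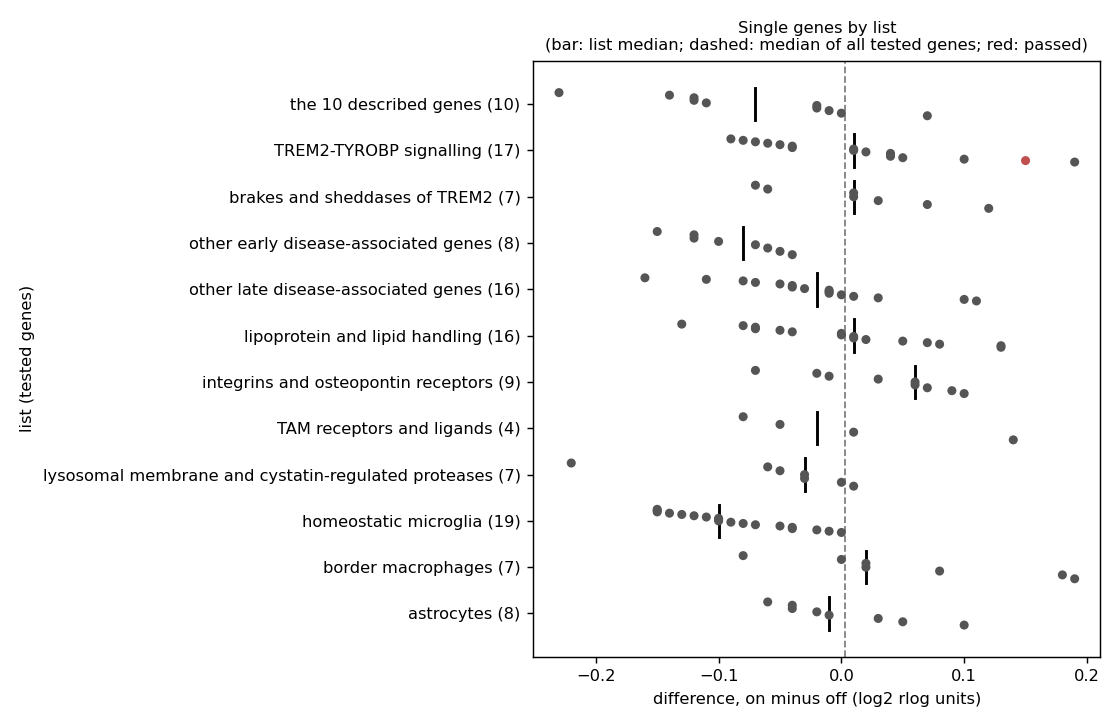
Difference on minus off (log2 rlog units, horizontal axis) of single genes in 12 lists, with the list's median as a bar, the median of all tested genes (0.0029) as a dashed line and genes past the limma threshold in red. The homeostatic microglia list has the lowest median of those shown, -0.10, and Pik3r1 is the one red point.

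Homeostatic microglia markers had differences of the same sign as Trem2 and Tyrobp. Of 19 tested, 18 were below 0, with a median of -0.10, 0 calls and 5 at an unadjusted p under 0.05, all lower. Tmem119, Ltc4s and C1qb each differed by -0.15, with limma adjusted p of 0.241, 0.132 and 0.23. Without on replicate 1, 7 of the 19 passed lower, among them Tmem119 (-0.21, limma adjusted p = 0.0239), Ltc4s (-0.17, limma adjusted p = 0.0415) and C1qb (-0.21, limma adjusted p = 0.0194). With the GC and length trend removed, 0 passed and 18 of 19 were still below 0, with a median of -0.08, and these genes were at -0.08, -0.10 and -0.02. The summed level of the list was 14.26 to 14.43 in on and 14.35 to 14.48 in off. Its mean deviation was 0.064, -0.08, -0.028 and -0.107 in on replicates 1 to 4 and -0.013, 0.114 and 0.05 in the off replicates, so on replicate 1 again lay among the off libraries. With every library centred on this list, Trem2 differed by -0.14 ± 0.07 (SE, limma adjusted p = 0.242), Tyrobp by -0.05 ± 0.07, Apoe by -0.04 ± 0.05, Cd68 by -0.03 ± 0.08 and Lpl by -0.03 ± 0.07. In that fit, which moved the median of all genes to 0.091, Clec7a (0.06), Cst7 (0.07), Itgax (0.09) and Axl (0.06) turned positive and Spp1 was at 0.16 ± 0.07 (SE, limma adjusted p = 0.173).

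**Figure D4:**
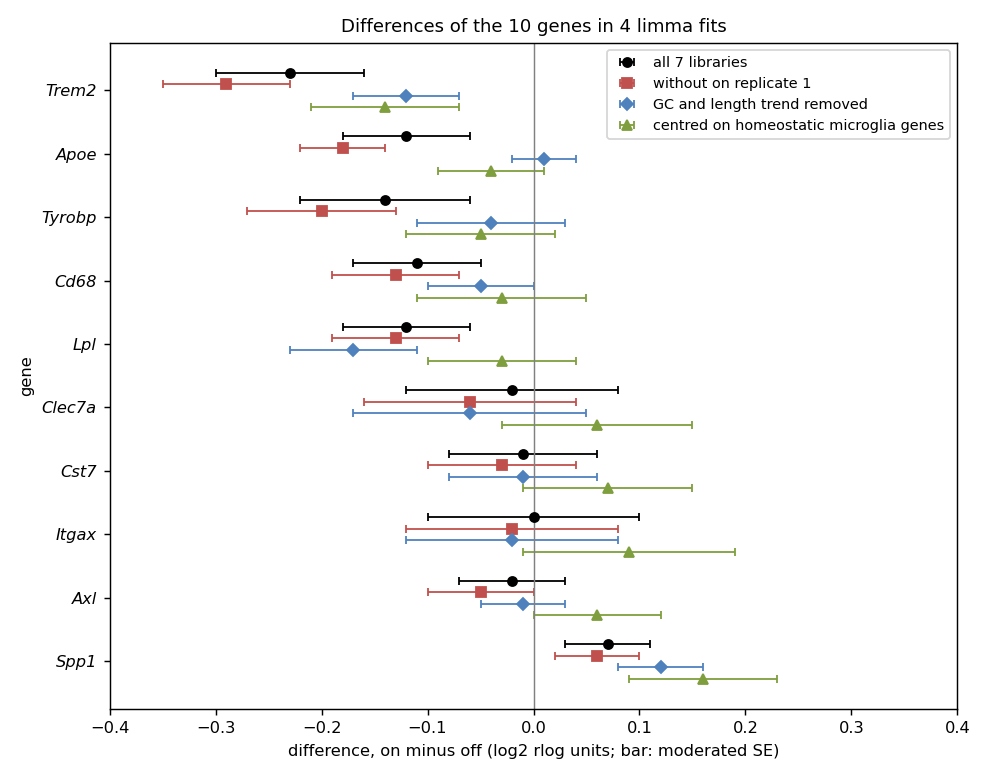
Difference on minus off (log2 rlog units, horizontal axis; bars are moderated SE) of each of the 10 genes in 4 limma fits. The difference of Trem2 is negative in all 4, from -0.29 to -0.12, and that of Spp1 is positive in all 4, from 0.06 to 0.16.

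Markers of other cells that could hold these transcripts were measured alongside. Border macrophage markers, 7 tested with 0 calls, had a median of 0.02 and a summed level of 8.90 to 9.04 in on and 8.76 to 8.93 in off. Among them Mrc1 differed by 0.19 ± 0.07 (SE, limma adjusted p = 0.153), Cd163 by 0.18 ± 0.06 and Cbr2 by -0.08 ± 0.07. Mrc1 passed higher without on replicate 1, at 0.23 ± 0.07 (SE, limma adjusted p = 0.027). With the GC and length trend removed, Mrc1 was at 0.14 ± 0.07, Cd163 at 0.15 ± 0.06 and Cbr2 at -0.05 ± 0.07. Astrocyte markers, 8 tested with 0 calls, had a median of -0.01 and a summed level of 17.46 to 17.57 in on and 17.43 to 17.53 in off. Endothelial markers, 6 tested with 0 calls, had a median of 0.12 and mean deviations of -0.225 in on replicate 1 and -0.218 in off replicate 2, against 0.039 to 0.143 in the other libraries. Without on replicate 1, 4 of the 6 endothelial markers passed higher and 0 of the 8 astrocyte markers passed. Neuronal markers, 6 tested with 0 calls, were below 0 in 5 and had a median of -0.05. Their part in the differences of the 10 genes was not tested.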

How the data were processed

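Per the labels' protocols, libraries came from a stranded Illumina mRNA kit after miRNeasy extraction and DNase. STAR 2.5.2, BWA 0.7.14-r1136, DESeq2 1.16.1, Subread 1.5.3, cutadapt 1.9.1 and GRCm38 stand in the submitters' processing notes. No source used here gives their roles, the annotation release or the strand setting. The values deposited by the authors are rlog values on the log2 scale, 1 column per library. Counts were not used here, so depth is unknown and precision comes from the 7 libraries.

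limma 3.58.1 (R 4.3.3) was fitted to genes with a mean of 3 or more (group term, intensity trend, two-sided, Benjamini-Hochberg over all tested genes, threshold 0.05), a method tested on simulated data. The simulated noise was independent between genes, so that test does not cover a library that stands apart over many genes, as on replicate 1 did. SE are moderated. Symbols matched 48058 identifiers. Transcript length and GC content are those of the longest protein-coding transcript in GENCODE M21, present for 17831 tested genes. As an alternative, a smooth of both was subtracted from each library within 3 classes of mean value (mgcv 1.9.3).

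The 10 genes and 21 further lists were chosen with earlier results of these data known. The text names all 10 genes. For each pathway list it names the genes that passed or else the 3 largest differences. It also names the 3 largest of the homeostatic microglia and border macrophage lists, and the 5 genes most like Trem2, Tyrobp and Cd68, of which 1 is not reported here. The rule also took 3 genes of each other cell type list, and those lists are given by counts, most with levels, instead. Olig1 and Olig2 are named because they passed, and Malt1 and Npc2 because they passed without on replicate 1, chosen after their values were seen. Other alternatives were filters, normalizations, variance models, the replicate block and each library left out. No 2 libraries held identical values.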

Additional observations from a re-analysis of the deposited data

Results flagged for a closer look

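Dixon's test was applied within the 4 on libraries to 31 values, the 10 genes and the mean deviations of 21 lists, and singled out 5 in which 1 library lay far from the others. Chance gives about 1.6, since the test picks about 1 in 20 such groups. The 31 values share the same 4 libraries, and on replicate 1 was already known to stand apart. The 5 against 1.6 is therefore a description and no test. On replicate 1 stood apart in Trem2, at 8.87 against 8.62 to 8.64 in the other on libraries. On replicate 4 stood apart in Clec7a, at 6.37 against 6.67 to 6.72. On replicate 4 also stood apart in the mean deviation of the TAM receptors and ligands, at -0.05 against 0.017 to 0.024. On replicate 1 stood apart in the mean deviations of neuronal markers, 0.027 against -0.045 to -0.034, and of endothelial markers, -0.225 against 0.09 to 0.143.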

How the results depend on the processing

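The number of genes passing was 466. It was 7 with no filter, 24 with libraries centred on homeostatic microglia genes, 237 without the intensity trend, 2215 with array weights, 1182 at a threshold of 0.1, 90 with the GC and length trend removed, and 1763 with that trend removed and without on replicate 1. Leaving out 1 library gave 43 (without off replicate 2) to 2917 (without on replicate 1). Of the 10 genes, 0 passed, against 1 with array weights, 1 at a threshold of 0.1 (Trem2 in both) and 0 to 2 (Trem2 and Apoe without on replicate 1) with 1 library left out. Of the list genes 3 passed, against 0 with no filter, 0 after centring on microglia genes, 1 without the trend, 18 with array weights, 6 at 0.1, 0 with the GC and length trend removed, 11 with that and without on replicate 1, and 0 to 30 (the latter without on replicate 1) with 1 library left out. Same-numbered on and off libraries did not deviate together (r of -0.228, -0.1 and 0.018), so the numbers were not taken as pairs. With the replicate block 30 genes passed, 0 of the 10 and 0 of the list genes. The block leaves on replicate 4 without a partner, so its differences equal those without that library.

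Some small differences changed sign. Centring on microglia genes or on the median moves the differences of all genes by the same amount, so its sign changes follow from that shift. The cause of the other changes was not tested. Centring on microglia genes gave 0.0638 for Clec7a, 0.0738 for Cst7, 0.087 for Itgax, 0.0633 for Axl, 0.0179 for Dok3, 0.0131 for Itgb5, 0.0389 for Tyro3, 0.0103 for Gas6, 0.043 for Ctsh, 0.0237 for Ctsf, 0.0052 for Cbr2 and 0.0093 for Gm15853. The replicate block gave 0.0591 for Clec7a, 0.0141 for Cst7, 0.0681 for Itgax and 0.0007 for Axl. Itgax was 0.0054 with median centring and 0.0166 with array weights, where Treml2 was -0.0093. Removing the GC and length trend gave 0.0073 for Apoe, -0.0081 for Treml2, -0.0044 for Cblb and 0.0197 for Ctsf. Doing so without on replicate 1 gave -0.031 for Treml2, 0.0251 for Dok3, -0.0029 for Igf1, 0.0044 for Nr1h2, -0.0007 for Cd44, 0.0001 for Ctsh and 0.0238 for Ctsf. With 1 library left out, the range was -0.0536 to 0.0035 for Axl, -0.1408 to 0.0288 for Cbr2, -0.1192 to 0.0888 for Clec7a, -0.1045 to 0.0844 for Cst7, -0.1049 to 0.1501 for Itgax, -0.0134 to 0.0403 for Treml2. The signs of Trem2, Tyrobp, Cd68, Lpl and Spp1 held under all 19 alternatives, but not all of these could change a sign. The filters, the intensity trend, the robust variance prior and the threshold do not enter a difference, and the replicate block repeats the fit without on replicate 4. Depth is unknown, and with rlog values of low genes shrunk, small changes in Cst7 or Itgax may not be detectable.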

Other observations

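Leukocyte markers were in part below the filter on low values. Of the neutrophil markers 4 of 6 were abundant enough to test, with 0 calls, a median of 0.14 and a summed level of 7.11 to 7.54 in on and 6.94 to 7.47 in off. Of the monocyte markers 3 of 5 were tested, with 0 calls and a median of 0.09. Of the T and NK cell markers 1 of 6, Cd4, was tested. Myelin markers had a median of -0.06 over 6 genes with 0 calls, and their mean deviation was lowest in on replicate 4 (-0.122), where Tyrobp, Clec7a and Cd68 were lowest too.

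Mural cell markers had differences above 0 in 5 of 5, with 0 calls and a median of 0.10, and a summed level of 12.20 to 12.54 in on and 12.26 to 12.40 in off. Choroid plexus markers, 5 tested with 0 calls, had a median of -0.01 and a summed level of 14.65 to 15.02 in on and 14.83 to 14.88 in off. Of the 5 oligodendrocyte precursor markers 2 passed lower, and the median was -0.01. Their summed level was 13.04 to 13.22 in on and 13.20 to 13.30 in off.

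Besides Pik3r1, the genes of the lists that passed were Olig1 and Olig2, transcription factor genes of the oligodendrocyte lineage. Olig1 fell by 0.28 ± 0.05 (SE, limma adjusted p = 0.0165), from 11.92, 12.01 and 12.08 in off to 11.86, 11.71, 11.66 and 11.67 in on. Olig2 fell by 0.24 ± 0.06 (SE, limma adjusted p = 0.0493). The limma adjusted p of Olig1 was 0.0759 and 0.0634 when on replicate 3 or 4 was left out, and 0.096 and 0.0946 when off replicate 2 or 3 was. Olig2 kept its call only without on replicate 1 or on replicate 2. Neither passed after removal of the GC and length trend, at -0.16 ± 0.04 and -0.18 ± 0.06 (SE). With on replicate 1 left out as well, Olig1 passed at -0.19 ± 0.03 (SE, limma adjusted p = 0.00564) and Olig2 did not (limma adjusted p = 0.0555).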
